A study of Mus musculus with 10 samples.

Results

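FoxO proteins are forkhead transcription factors. Insulin and Akt signalling holds FoxO1, FoxO3 and FoxO4 outside the nucleus, which they enter under stress or when growth factors are scarce, whereas FoxO6 is known to stay largely nuclear. In the nucleus FoxO factors switch on genes that remove reactive oxygen species, slow growth and repair DNA, and these genes are known for protecting cells against oxidative stress. The genes described here are 10 stress resistance targets of this family, chosen by symbol: the sestrins Sesn1, Sesn2 and Sesn3, the superoxide dismutases Sod1 and Sod2, the peroxide-removing enzymes Cat and Prdx3, the damage-response genes Gadd45a and Gadd45b, and the thioredoxin inhibitor Txnip. All 10 were found among the 48476 genes of the count table, and all 10 were among the 10977 genes with enough reads to be tested.

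RNA was sequenced from mouse embryonic fibroblasts (MEFs) during reprogramming towards induced pluripotent stem cells. Every culture was infected with viruses carrying the reprogramming factors Oct4, Klf4 and Sox2, abbreviated OKS. The control arm, OKS+DR, also received DsRed, a red fluorescent protein, and the other arm, OKS+FoxO6, received FoxO6 in its place. Per the labels the mice were CBA/CaJ X C57BL/6J, and per the study's methods the fibroblasts came from E13.5 embryos and carried a green fluorescent reporter of Oct4, so all libraries share that reporter and the OKS viruses. Infected cells were then moved to iCD1 medium, and how long the day 0 cells had been in it is not given in the sources used here. Each arm was sampled at days 0, 1, 3, 5 and 7, with 1 library for each arm and day, 10 libraries in all.

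Gene totals ran from 1208379 to 2225750 expected counts per library, with a median of 1601151, which is shallow, and genes with few reads are given below with their counts. Foxo6 itself separated the arms in every library: it held 1017, 1325, 1356, 1267 and 762 TPM (the share of a library's transcripts after scaling by length) at days 0, 1, 3, 5 and 7 in OKS+FoxO6, and 0.61 to 2.29 TPM in OKS+DR. The day 0 library of OKS+FoxO6 thus already carried the transgene, so that day is not a state before FoxO6. The summed TPM of 12 fibroblast markers went from 5550 to 792 between days 0 and 7 in OKS+DR and from 4980 to 1180 in OKS+FoxO6. The summed TPM of 10 epithelial and pluripotency markers went from 16.7 to 913 in OKS+DR and from 3.85 to 183 in OKS+FoxO6, so these sums differed between the arms by day 7. A lower level in such bulk RNA cannot be told apart from fewer cells that express the gene. In addition, macrophage markers summed to 15.1 to 60.6 TPM in OKS+DR and 22.3 to 31.2 TPM in OKS+FoxO6, and endothelial markers to 22.0 to 56.6 and 33.5 to 104 TPM. Most of the first sum was Cd68 and most of the second was Tek. The macrophage marker C1qa and the endothelial marker Emcn were listed at 0 in every OKS+DR library, and Tyrobp, Fcer1g and Cldn5 in every OKS+FoxO6 library. The part of these cell mixtures in the results below was not tested.

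Promoter stretches of the members with letters of interest are shown here because FoxO factors bind DNA through a short core, GTAAACA, and because Oct4, supplied in both arms, binds the octamer ATTTGCAT. Promoters were taken from RefSeq on build GRCm38.p6, as windows of 250 bases before and 50 bases after each transcription start, and all 10 members were matched, with 11 windows. Among the windows of the members, the core was found before the start in Txnip alone, on the strand of the gene with its first base 121 bases before the start, and it was present there in 3.17% of 32851 promoter windows, both strands searched. The Txnip match extends to the longer element GTAAACAA, found in 1.07% of windows. In the same stretch stands a pair of CACGAG repeats spaced by 5 bases, 85 bases before the start, an arrangement that occurred in 1 window of the whole table. That spaced pair, known as a carbohydrate response element for the glucose-sensing factors Mlxip and Mlxipl, was looked up after the promoter had been read, as were the longer element and the octamer. The Txnip stretch, chr3:96557797-96557916 on the plus strand, reaches from 160 to 41 bases before the start, partly over an exon of the opposite-strand transcript Gm15441, and capitals mark the FoxO element and then the spaced pair with its spacer.
Txnip: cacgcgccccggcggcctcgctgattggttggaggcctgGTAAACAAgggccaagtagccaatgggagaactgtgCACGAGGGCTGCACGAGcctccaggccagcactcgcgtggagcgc

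The octamer occurred in 1.6% of windows and in the windows of 2 members, Gadd45a and Sesn3. In Gadd45a it was found once on each strand, with the matches beginning 97 and 70 bases before the start, and in Sesn3 once, 244 bases before it. The Gadd45a stretch is chr6:67037438-67037537 on the minus strand, from 130 to 31 bases before the RefSeq start, and its end lies inside a GENCODE transcript of the gene. The Sesn3 stretch is chr9:14276051-14276170 on the plus strand, from 250 to 131 bases before the RefSeq start, inside the span of longer GENCODE transcripts. Capitals mark the octamer on either strand.
Gadd45a: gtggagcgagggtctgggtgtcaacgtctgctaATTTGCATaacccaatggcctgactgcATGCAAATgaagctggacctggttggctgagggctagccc
Sesn3: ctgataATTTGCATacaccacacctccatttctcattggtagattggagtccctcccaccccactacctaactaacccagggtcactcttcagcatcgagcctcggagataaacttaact

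In Sesn1 a core match lies just after the RefSeq start, beginning 22 bases after it on the opposite strand, within an annotated untranslated exon stretch. The 30 bases shown are chr10:41810582-41810611 on the plus strand, with the core in capitals as read on that strand. Counting the whole window, 3.65% of promoters and 2 members, Sesn1 and Txnip, held the core.
Sesn1: ggagaaccttctacTGTTTACcagcctttt

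The antioxidant response core TGACNNNGC, the site of Nrf2, was found before the start in Sesn2 and Sod1 and in 10.2% of windows, and the E box CACGTG in Gadd45b and in 6.02% of windows. Such matches describe letters in these windows and do not show binding. The members that differed most between the arms, described next, held no FoxO core in these windows, and 3.65% of all windows held it. With so low a share, an absence in few genes says little, and sites elsewhere or with other letters were not searched.

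To ask which of the stress genes differed between OKS+FoxO6 and OKS+DR over the whole course, a shift shared by the 5 days was fitted across all genes, with the days as pairs. Gadd45a, Sesn3, Cat and Sod2 were higher in OKS+FoxO6 and passed the test, by 5.08-fold, 1.92-fold, 1.54-fold and 1.45-fold. No member passed in the lower direction, and 6 did not pass. Among all genes tested, 6.93% were called higher and 7.13% lower. The members were chosen with earlier results of these data known, so these shares are no independent background for them. The median log2 fold change was 0.138 over the 10 members and -0.0168 over all genes tested. With 1 library per arm and day, the error of this test is what remains after arm and day are taken out, and its p-values describe the spread within these 2 time courses. Without the pairing by day, 1 of the 4 calls, that of Gadd45a, was left.

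**Figure D1:**
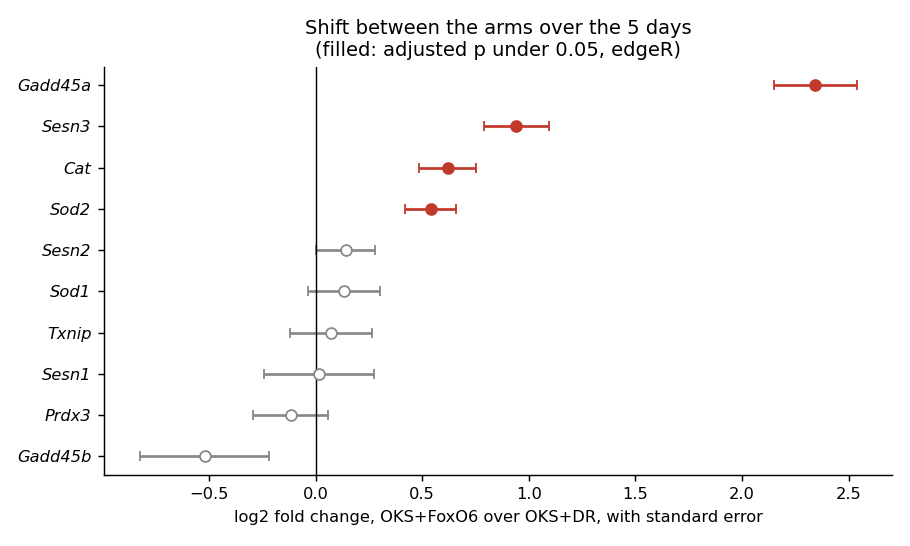
Log2 fold change of each member between OKS+FoxO6 and OKS+DR over the 5 days, with a standard error computed from the edgeR F statistic. Points are ordered by value, from Gadd45b at -0.52 to Gadd45a at 2.34, and filled points are the 4 members with an adjusted p under 0.05.

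Gadd45a encodes a stress protein that binds PCNA and MAP3K4 and takes part in cell cycle arrest and DNA repair. It held 27.9, 21.6, 33.3, 59.0 and 52.4 TPM at days 0, 1, 3, 5 and 7 in OKS+DR. In OKS+FoxO6 it held 204, 188, 227, 199 and 180 TPM. Every OKS+FoxO6 library was above every OKS+DR library, the closest values being 180 and 59.0 TPM. The shift was 2.34 on the log2 scale (SE 0.19, adjusted p = 6.2924e-05), the 30th highest of the 10977 genes. As a ratio of read rates, the expected counts over the scaled library size, the arms stood at 5.76 on day 0 (95% interval 3.68 to 9.49) and 7.50 on day 1 (4.64 to 12.8), against 3.22 on day 5 (2.28 to 4.64) and 4.10 on day 7 (2.96 to 5.78). These intervals cover counting error alone. The ratio was lower at the later days, where the OKS+DR libraries held 40 and 48.0 reads against 19 to 23 before, but a steady trend with the day did not pass the test (-0.13 per day on the log2 scale, SE 0.06, adjusted p = 0.285). The gene lies at chr6:67035096-67037457 on the minus strand and overlaps the opposite-strand transcript E230016M11Rik, which reached at most 8.46 TPM.

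Its relative Gadd45b, another member of the growth arrest and DNA damage family that responds early to stress and cytokines, ran a different course. It held 34.8, 4.32, 12.3, 32.2 and 26.1 TPM in OKS+DR and 27.7, 2.99, 10.9, 11.3 and 24.7 TPM in OKS+FoxO6, over the same days. Both arms were lowest at day 1, where the gene rested on 4 and 3 reads. The change over the days passed the test (adjusted p = 0.0122) and no longer did so without day 1 (adjusted p = 0.182). The arms differed by -0.52 (SE 0.30, adjusted p = 0.304), which did not pass. At day 5 alone Gadd45b stood past 2-fold lower in OKS+FoxO6, at 14 reads against 27 (ratio 0.337, 95% interval 0.163 to 0.665), while at day 7 the ratio was 1.04 (0.596 to 1.80). As a share of the summed TPM of both genes, Gadd45a made up 44.5% to 83.3% in OKS+DR and 88.0% to 98.4% in OKS+FoxO6.

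**Figure D2:**
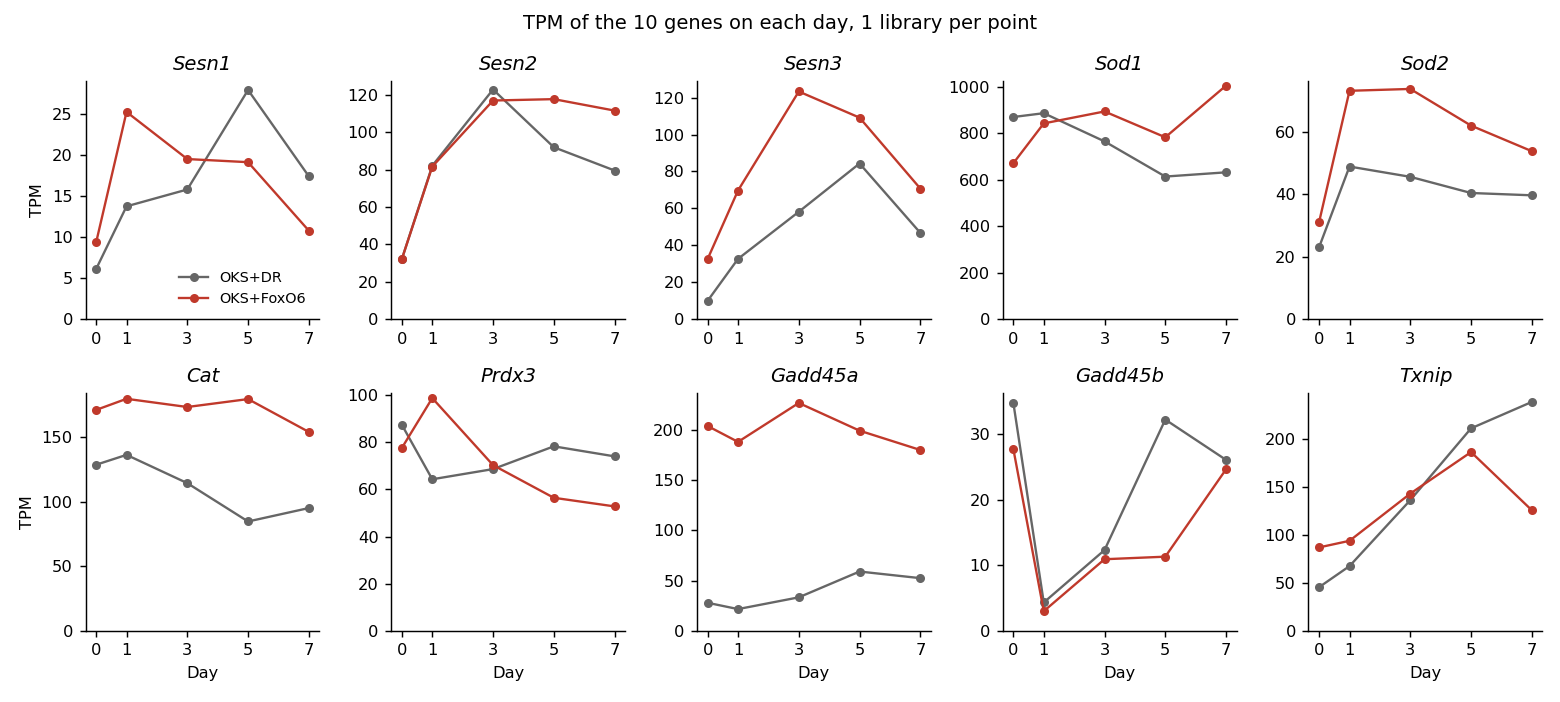
TPM of each of the 10 members against the day of sampling, with grey points for OKS+DR and red points for OKS+FoxO6, 1 library per point, each panel with its own axis from 0. In the panels of Gadd45a and Cat all red points lie above all grey ones. The red line of Sod1 starts at 672 TPM below the grey one at 870 TPM and ends above it, and the lines of Txnip cross the other way.

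The sestrins are stress-induced proteins that restrain the growth kinase complex mTORC1, in part by sensing leucine through GATOR2, and that help to restore oxidised peroxiredoxins. Among these genes Sesn3 was higher in OKS+FoxO6 on all 5 days. It held 9.94, 32.6, 58.2, 84.3 and 46.7 TPM in OKS+DR at days 0, 1, 3, 5 and 7. It held 32.6, 69.7, 123, 109 and 70.7 TPM in OKS+FoxO6. Within each day OKS+FoxO6 was the higher library, while the ranges of the arms overlapped, both arms being lowest at day 0. The shift was 0.94 (SE 0.15, adjusted p = 0.00256). Over the 5 days the ratio of read rates ran 3.01 (95% interval 2.26 to 4.08), 1.98, 2.10, 1.68 and 1.35 (1.18 to 1.55). It was thus widest at day 0 and narrowest at day 7, but the trend with the day did not pass (-0.13 per day, SE 0.04, adjusted p = 0.114), and it was -0.03 per day (adjusted p = 0.729) once each library's trend with transcript length was removed.

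The TPM of Sesn3 also depends on the mix of its transcripts, since the effective length assigned to the gene ran from 6477 to 8949 bases across libraries. At day 5 the difference between the arms was 0.37 in log2(TPM + 1), and 0.75 in CPM, a read share that takes no account of length. The gene spans chr9:14275067-14333101 on the plus strand.

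Sesn2, the sestrin known for induction by amino acid shortage and ATF4, held 32.2, 82.1, 123, 91.9 and 79.5 TPM in OKS+DR and 32.2, 81.6, 117, 118 and 112 TPM in OKS+FoxO6. The arms lay close to each other up to day 3 and OKS+FoxO6 was the higher at days 5 and 7. The shift of 0.14 did not pass (SE 0.14, adjusted p = 0.566), nor did the trend of 0.11 per day (SE 0.04, adjusted p = 0.170). At day 7 the ratio of read rates was 1.54 (95% interval 1.31 to 1.82). Sesn1, a p53 and FoxO target, was the scarcest sestrin, with 6.10, 13.7, 15.8, 27.9 and 17.4 TPM in OKS+DR and 9.34, 25.2, 19.5, 19.1 and 10.8 TPM in OKS+FoxO6. It rested on 10 to 58 reads per library, was the higher in OKS+FoxO6 at days 0, 1 and 3 and the lower at days 5 and 7, and showed no shift that passed (0.01, SE 0.26, adjusted p = 0.981) and no trend that passed (-0.23 per day, SE 0.08, adjusted p = 0.145).

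Both arms held more sestrin transcript after day 0. The summed TPM of the 3 genes went from 48.2 at day 0 to 204 at day 5 in OKS+DR, and from 74.1 at day 0 to 260 at day 3 in OKS+FoxO6, and was lower again at day 7 in both, at 144 and 193 TPM. The change over the days passed the test for Sesn3 (adjusted p = 0.00101) and Sesn2 (adjusted p = 0.00176) and not for Sesn1 (adjusted p = 0.132). Sesn2 did not pass without day 0 (adjusted p = 0.407), and Sesn1 passed with no filter on low counts (adjusted p = 0.0110). Among all genes tested, 19.6% changed over the days. Sesn2 made up 66.7% of sestrin TPM at day 0 in OKS+DR and 43.4% in OKS+FoxO6. Sesn3 made up 20.6% and 44.0% there, so that Sesn2 was well ahead in OKS+DR and the shares of both genes were close in OKS+FoxO6. Shares close to each other were also seen in OKS+FoxO6 at day 3, at 45.0% for Sesn2 and 47.5% for Sesn3, and at day 5 in both arms, at 45.0% and 41.3% in OKS+DR and 47.9% and 44.4% in OKS+FoxO6. By day 7 Sesn2 made up the most in both arms, with 55.4% and 57.8%.

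**Figure D3:**
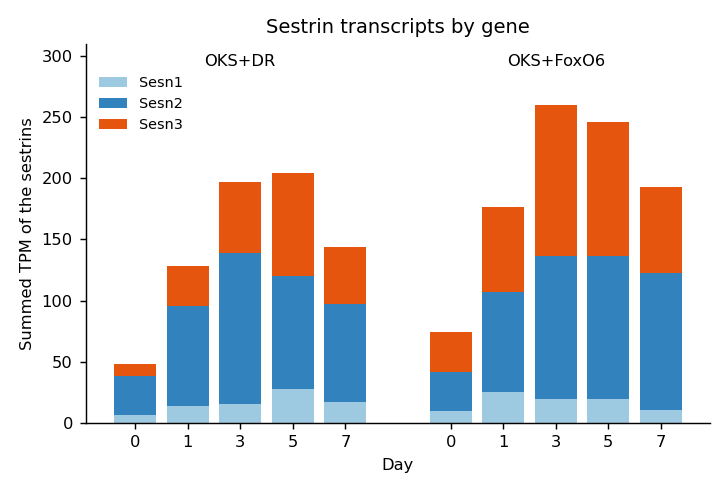
Summed TPM of Sesn1, Sesn2 and Sesn3, stacked by gene, for each arm and day, 1 library per bar. The sum rises from 48.2 to 204 TPM by day 5 in OKS+DR and from 74.1 to 260 TPM by day 3 in OKS+FoxO6, and the Sesn3 part is the taller in OKS+FoxO6 on every day.

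Catalase, encoded by Cat, breaks down hydrogen peroxide in peroxisomes. Cat held 129, 136, 114, 84.7 and 95.1 TPM at days 0, 1, 3, 5 and 7 in OKS+DR and 171, 180, 173, 179 and 154 TPM in OKS+FoxO6. The lowest OKS+FoxO6 library, at 154 TPM, was above the highest OKS+DR library, at 136 TPM. Among all genes tested, 2.33% had all OKS+FoxO6 libraries above all OKS+DR libraries, and 1.5% the reverse. Cat and Gadd45a were the 2 members of the first kind, and no member was of the second. The shift of Cat was 0.62 (SE 0.13, adjusted p = 0.0109). The ratio of read rates was 1.20 at day 0 (95% interval 1.02 to 1.42) and 2.04 at day 5 (1.69 to 2.47), where the OKS+DR library was lowest. Without day 5 the shift was 0.53 and its adjusted p 0.0634.

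Sod2, the manganese superoxide dismutase of mitochondria and one of the classic FoxO3 targets, held 23.0, 48.8, 45.5, 40.4 and 39.6 TPM in OKS+DR and 31.1, 73.0, 73.6, 61.9 and 53.7 TPM in OKS+FoxO6. OKS+FoxO6 was the higher on all 5 days, with read rate ratios of 1.22, 1.48, 1.59, 1.47 and 1.49, and both arms were lowest at day 0. The shift was 0.54 (SE 0.12, adjusted p = 0.0138). It stayed at 0.51 without day 3 and 0.54 without day 5, with adjusted p values of 0.0715 and 0.0617, which did not pass. The change over the days passed (adjusted p = 0.0165) and rested on day 0, since without it the adjusted p was 0.644.

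Sod1, the copper and zinc superoxide dismutase of the cytosol, was the most abundant member, with 92.0% to 97.4% of the TPM of both dismutases in every library. It held 870, 887, 765, 614 and 632 TPM in OKS+DR and 672, 843, 894, 783 and 1006 TPM in OKS+FoxO6. From day 0 to day 7 the read rate of Sod1 in OKS+DR was multiplied by 0.673 (95% interval 0.578 to 0.784) and that in OKS+FoxO6 by 1.70 (1.49 to 1.93). The shift over all days was 0.13 (SE 0.17, adjusted p = 0.669), which did not pass, while the difference between the arms moved by 0.17 per day on the log2 scale (SE 0.04, adjusted p = 0.0392). Among all genes tested, 1.98% passed this test of a trend. The call was not held when each library's trend with transcript length was removed (0.09 per day, adjusted p = 0.187), with DESeq2 (0.16 per day, adjusted p = 0.0868), or when day 0, 1, 3 or 7 was left out, with adjusted p values of 0.217, 0.0779, 0.0644 and 0.336 and slopes of 0.14 to 0.18 per day. Sod1 is short, with an effective length of 580 to 586 bases, and lies opposite Scaf4, which held 31.8 to 47.8 TPM. Whether reads were counted by strand is not given in the sources used here, so reads of their overlap cannot be told apart.

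Prdx3, the peroxiredoxin of mitochondria, held 87.4, 64.3, 68.6, 78.3 and 74.0 TPM in OKS+DR and 77.6, 98.8, 70.3, 56.5 and 52.8 TPM in OKS+FoxO6. OKS+FoxO6 was the higher at days 1 and 3 and the lower at the other 3 days. Neither the shift (-0.12, SE 0.18, adjusted p = 0.725) nor the change over the days (adjusted p = 0.636) passed the test.

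Txnip encodes an arrestin-like protein that binds and inhibits thioredoxin and lowers glucose uptake. It held 45.6, 67.6, 136, 211 and 239 TPM in OKS+DR, higher at each later day. In OKS+FoxO6 it held 87.1, 94.0, 143, 187 and 126 TPM, highest at day 5. OKS+FoxO6 was therefore the higher at days 0, 1 and 3 and the lower at days 5 and 7, and the read rate ratio ran 1.59, 1.64, 1.02, 0.861 and 0.627. The average shift was 0.07 (SE 0.19, adjusted p = 0.853), which did not pass, while the difference moved by -0.20 per day (SE 0.04, adjusted p = 0.0177). This trend did not pass without day 0, 1 or 7, with adjusted p values of 0.0755, 0.0766 and 0.176 and slopes of -0.22, -0.19 and -0.20 per day. The change over the days passed as well (adjusted p = 0.00868). The effective length of Txnip ran from 2249 to 2758 bases, and at day 7 the difference was -0.92 in log2(TPM + 1) and -0.67 in CPM.

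Day by day, with a difference past 1 in log2(TPM + 1) taken as 2-fold and without a test, 2 members were higher in OKS+FoxO6 at day 0 (Sesn3 and Gadd45a), 2 at day 1 and 2 at day 3 (the same genes), 2 at day 5 (Cat and Gadd45a) and 1 at day 7 (Gadd45a). Gadd45b at day 5 was the 1 case in the lower direction. Among 14837 genes with a mean of at least 1 TPM, 16.7%, 17.3%, 19.9%, 21.5% and 24.5% were past 2-fold in either direction at days 0, 1, 3, 5 and 7. Set against these shares, the 2, 2, 2, 3 and 1 members of 10 were near the share of all genes on days 0 to 3. They were above it at day 5 by about 1 gene and below it at day 7. With a floor of 5 TPM the shares of genes were 11.9%, 11.7%, 13.9%, 15.4% and 19.2%. Against those, the 10 members were above on days 0 to 5, by few genes, and below at day 7. In CPM, Sesn3 fell just short at day 1, leaving 1 member there.

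**Figure D4:**
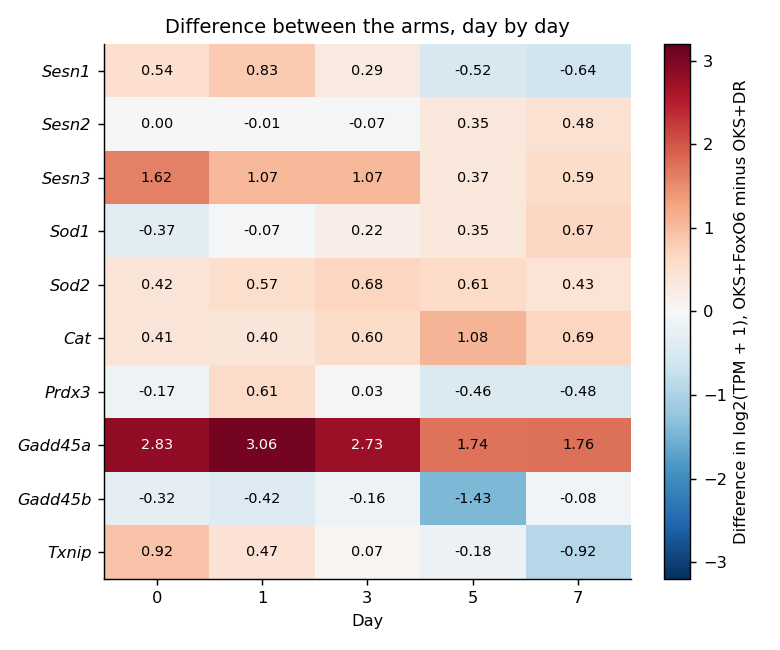
Difference in log2(TPM + 1) between OKS+FoxO6 and OKS+DR for each member and day, red where OKS+FoxO6 is higher and blue where it is lower. The row of Gadd45a runs from 1.74 to 3.06, the row of Sod1 goes from -0.37 to 0.67 and that of Txnip from 0.92 to -0.92.

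Between day 0 and day 7, Sesn1, Sesn2, Sesn3 and Txnip were past 2-fold higher in OKS+DR, by differences of 1.37, 1.28, 2.13 and 2.37 in log2(TPM + 1). In OKS+FoxO6 Sesn2 and Sesn3 were, by 1.76 and 1.10, the latter being 0.96 in CPM. None was past 2-fold lower in either arm. Among all genes with at least 1 TPM, 32.3% were past 2-fold in OKS+DR and 31.2% in OKS+FoxO6. Cat and Gadd45a of OKS+FoxO6 stood close to their day 0 level at day 7, with read rate ratios of 1.01 (95% interval 0.882 to 1.17) and 1.00 (0.816 to 1.23). By the test over all 5 days, Sesn2, Sesn3, Sod2, Gadd45b and Txnip changed, 5 of the 10 members, where 19.6% of all genes tested did.

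The other genes of these pathways were counted in lists. The members are set beside them for the same shift, and no list was tested as a whole. Each count stands beside the 6.93% of all genes tested that were called higher and the 7.13% called lower. The lists were chosen with earlier results of these data known, so these shares are no independent background for them. Of 18 tested among 24 other FoxO targets, 8 were higher and 1 was lower, with a median of 0.481. The highest were Erbb3, a growth factor receptor induced when Akt is blocked (log2 fold change 2.14, SE 0.20), the TGF-beta receptor Tgfbr2 (1.50, SE 0.15), the matricellular gene Ctgf (1.40, SE 0.24), the transcriptional regulator Cited2 (1.38, SE 0.20) and the PI3K inhibitor Pik3ip1 (1.20, SE 0.21). Klf2, a Kruppel-like factor, was lower by a log2 fold change of -1.25 (SE 0.30). The shifts of Gadd45a (2.34, SE 0.19) and Erbb3 overlapped within their standard errors, and the shifts of Sesn3, Cat and Sod2 were 0.94, 0.62 and 0.54.

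Of 14 tested among 15 other enzymes of peroxide and superoxide removal and thiol repair, 4 were higher and none was lower, with a median of 0.214. They were the methionine sulfoxide reductase Msrb2 (1.03, SE 0.29), the glutaredoxin Glrx (0.84, SE 0.25), and the peroxiredoxins Prdx6 (0.53, SE 0.15) and Prdx5 (0.46, SE 0.13). Their edgeR adjusted p values ran from 0.0340 to 0.0493, close to the threshold of 0.05. In TPM Msrb2 was higher in OKS+FoxO6 on 4 of 5 days. Prdx1, the most abundant of the list, did not pass (0.08, SE 0.14). Of 14 tested among 15 targets of Nrf2, the main regulator of antioxidant genes, 4 were higher and none lower, with a median of 0.345. These were the heme oxygenase Hmox1 (0.85, SE 0.13), the biliverdin reductase Blvrb (0.84, SE 0.19), the glutathione conjugate pump Abcc1 (0.74, SE 0.12) and G6pdx, which makes NADPH (0.56, SE 0.12). The ferritin chain Ftl1, the most abundant, had 0.55 (SE 0.19) and did not pass. With no filter on low counts 7 of the Nrf2 list were called higher.

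Gadd45a, Sesn1 and Sesn2 are also targets of p53 or of the integrated stress response, so those lists were counted as well. Of 20 p53 targets 2 were higher, a share near the 6.93% of all genes, and none was lower, with a median of 0.0791. They were the membrane protein Perp (0.95, SE 0.19) and the autophagy regulator Trp53inp1 (0.72, SE 0.16). The cell cycle inhibitor Cdkn1a, the most abundant of them, did not pass (0.08, SE 0.16). Of 13 tested among 16 targets of the integrated stress response, 2 were higher, the stress regulator Nupr1 (1.22, SE 0.22) and the phosphatase subunit Ppp1r15a (0.77, SE 0.15), and 1 was lower, the proline synthesis enzyme Aldh18a1 (-0.76, SE 0.15), with a median of -0.0174. The shift of Ppp1r15a is one of reads: in TPM, which takes its varying assigned length into account, it was higher in OKS+FoxO6 on 3 of 5 days, with means of 57.1 and 46.5 TPM. Atf4 itself did not pass (0.09, SE 0.15).

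Downstream of the sestrins, 17 of 19 listed genes of amino acid sensing by mTORC1 were tested, 1 was higher, again near the 6.93% of all genes, and none was lower, with a median of -0.00652. The gene was Nprl3, a subunit of the GATOR1 complex (0.62, SE 0.17), and the GATOR2 subunit Sec13, the most abundant, had -0.07 (SE 0.14). Of 8 tested among 10 relatives and partners of Gadd45 and Txnip, none passed in either direction, and the median was -0.0312. Pcna, the DNA clamp that Gadd45a binds, had -0.21 (SE 0.13, adjusted p = 0.332).

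**Figure D5:**
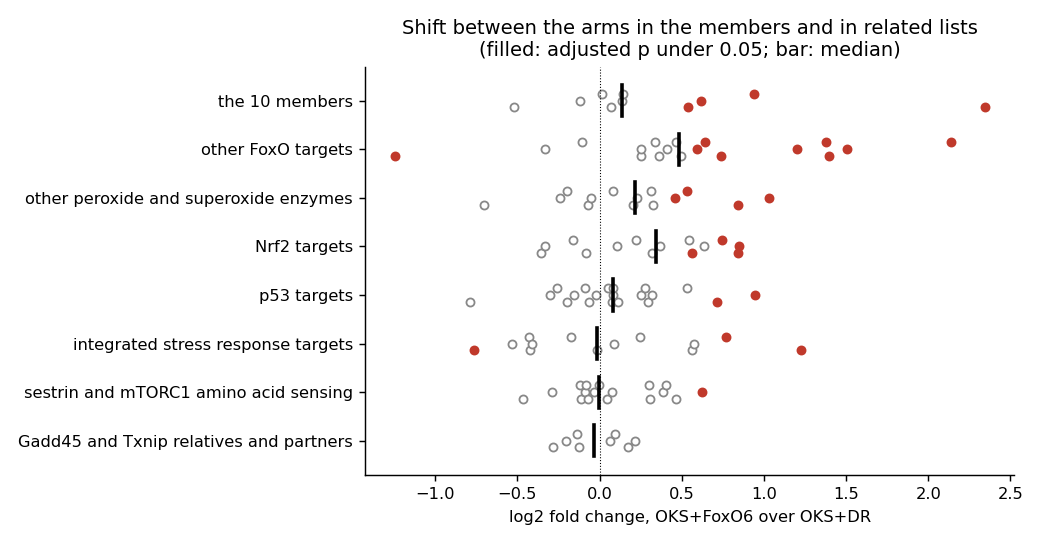
Log2 fold change between OKS+FoxO6 and OKS+DR over the 5 days for the members and for the tested genes of 7 related lists, 1 point per gene, filled where the adjusted p was under 0.05, with a bar at the median. The median bar of the members stands at 0.138 and that of the other FoxO targets at 0.481.

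Of the other FoxO genes, Foxo4 was lower in OKS+FoxO6 on all 5 days (-0.84, SE 0.17, adjusted p = 0.00853), Foxo1 did not pass (0.34, SE 0.23, adjusted p = 0.377) and neither did Foxo3 (-0.29, SE 0.13, adjusted p = 0.173). Among the cell type markers, 3 fibroblast genes were higher, Dcn (1.15), Pdgfra (0.96) and Postn (0.69), and 2 were lower, Prrx1 (-0.78) and Col3a1 (-0.64), on the log2 scale. Col1a2, the most abundant of them, did not pass (0.46, SE 0.31). With no filter on low counts, 5 were called higher and 4 lower. Of the epithelial and pluripotency markers 3 were tested and all 3 were lower, Cdh1 (-3.12), Krt8 (-2.06) and Epcam (-1.87), and 5 were called lower with no filter. The endothelial receptor Tek was higher (0.95), and it was the 1 endothelial gene with enough reads. Of the macrophage markers 1 had enough reads, Cd68, and did not pass (-0.51, SE 0.33). These differences stand beside those of Gadd45a, Sesn3, Cat and Sod2 in the same libraries, and their part in them was not tested. At day 0, where the epithelial and pluripotency markers summed to 16.7 TPM in OKS+DR and 3.85 TPM in OKS+FoxO6, the arms' ratio of read rates was 5.76 for Gadd45a, 3.01 for Sesn3, 1.20 for Cat (95% interval 1.02 to 1.42) and 1.22 for Sod2 (0.887 to 1.70).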

How the data were processed

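The deposited files hold, per the file headers, gene-level expected counts, TPM, FPKM and effective lengths for 10 libraries. The submitters' processing notes name RSEM and Bowtie2 on mm10, and no replicate was pooled. The expected counts were deposited by the authors without normalization. The TPM deposited by the authors are RSEM's length-scaled transcript shares. The authors' kit is named differently in the labels and the methods, and strandedness is not given in the sources used here. FPKM was not used.

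Groups came from the titles. Expected counts were rounded and fitted with edgeR 4.0.16 (TMM, filterByExpr, quasi-likelihood test, R 4.3.3) with day and arm as terms, leaving 4 residual degrees of freedom. The change over the days was the F test of the day terms, and the trend was arm times day number, with 3 residual degrees of freedom. P-values were two-sided and adjusted by Benjamini-Hochberg over 10977 genes, with a threshold of 0.05. Each SE was computed as the size of the log2 fold change divided by the square root of the F statistic. It is not an output of edgeR. Nothing in the labels says that the libraries of an arm are separate cultures, so p-values measure only the spread between these libraries. Totals ran from 1208379 to 2225750. Single days were compared without a test, as log2(TPM + 1), which understates the change of low genes, and as ratios of expected count per TMM-scaled library size with exact binomial 95% intervals. RSEM divides reads that match transcripts of different genes between those genes, so the counts of Sod1, Gadd45a and Txnip are not whole in some libraries. Gene positions are from GENCODE M21 (GRCm38). The fits were also run on simulated data, and the outcome is not reported here. Alternatives were DESeq2 1.42.0, RLE size factors, no filter, a length offset, no day term, each day left out, a pseudocount of 0.1, CPM, and a floor of 5 TPM.

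The members and lists were chosen with earlier results of these data known. Named were the members, the FoxO genes, the cell type markers and, from each list, up to 5 genes per direction past the threshold and the gene of highest mean TPM. A further marker list is not reported here.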

Additional observations from a re-analysis of the deposited data

Results flagged for a closer look

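The courses of 2 members differed between the arms by the test of the trend itself. The difference of Sod1 moved by 0.16675 per day on the log2 scale towards OKS+FoxO6 (edgeR adjusted p = 0.0392), with a read rate ratio of day 7 over day 0 of 0.673 in OKS+DR and 1.70 in OKS+FoxO6, opposite directions in the arms. That of Txnip moved by -0.2034 per day (edgeR adjusted p = 0.0177). Neither call was held in every alternative. That of Sod1 was lost with the length offset, with DESeq2 and without day 0, 1, 3 or 7. That of Txnip was lost without day 0, 1 or 7.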

How the results depend on the processing

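Over 547 alternatives of all results, 484 kept their direction and side of the threshold, or stayed within the allowed spread. Of the rest, 32 values moved, 18 calls were lost, 1 was gained and 12 values changed sign, with 0 of the 12 past the threshold. The shift of Sesn1 was -0.0405 with no day term and -0.0066 with the length offset, that of Txnip -0.10 with no day term, and the trend of Gadd45b -0.0468 per day with the length offset. With a day left out the shifts ran from -0.18 to 0.26 for Sesn1, -0.0397 to 0.30 for Sod1 and -0.0689 to 0.256 for Txnip, and the trends from -0.0033 to 0.0398 for Sod2 and -0.20 to 0.0731 for Gadd45b. A further 4 single-day or course values of members, none past 2-fold, changed sign in CPM. Higher genes numbered 761, and 1148 with no filter on low counts, 124 with no day term and 366 to 812 with a day left out. The members among them numbered 4, and 1 with no day term (Gadd45a) and 2 to 4 with a day left out, 2 being the count without day 5 (Gadd45a and Sesn3). Lower genes numbered 783, and 44 with no day term and 297 to 813 with a day left out, the lowest counts in both directions being those without day 5. Without the day term Sesn3, Cat and Sod2 had shifts of 0.88, 0.60 and 0.55, with adjusted p values of 0.361, 0.0779 and 0.281. That fit is the unpaired one, and no paired analysis beyond the day term was possible because each arm has 1 library a day.

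Genes that changed over the days numbered 2152, and 3816 with no filter and 1056 to 2485 with a day left out, the lowest without day 0. The members among them numbered 5, and 3 to 5 with a day left out: Sesn2 and Sod2 were lost without day 0 (adjusted p 0.407 and 0.644) and Gadd45b without day 1 (0.182). With no filter Sesn1 passed (adjusted p 0.0110). Genes with a trend numbered 217, and 628 with no filter, 126 with DESeq2 and 80 to 233 with a day left out, the lowest without day 7. The members among them numbered 2, and 1 with the length offset, 1 with DESeq2 and 0 to 2 with a day left out. In CPM 1 member was past 2-fold at day 1, and 1 over the course of OKS+FoxO6. The cause of these changes was not tested. Gadd45a passed the arm shift under every alternative run. At these depths Gadd45b and Sesn1, with 3 to 35 and 10 to 58 reads, allow wide intervals only.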
